A study of Mus musculus with 43 samples.

Results

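Polypoid dysplasias of the colitic mouse colon were compared by genome-wide DNA methylation between mice fed 8 mg of folic acid (FA) per kg of chow (8P) and mice fed chow without FA (0P). All libraries that the sample labels give as polypoid tumor cells were taken, which were 13 of the 43 libraries of the study: 7 8P lesions from 6 mice, since mouse 1856 gave 2, and 6 0P lesions from 6 mice. All mice were Swiss Webster, and female according to the study's methods. They ate chow with 2 mg/kg FA, were injected with the carcinogen azoxymethane at 7 weeks of age and received 4 cycles of dextran sulfate sodium from 9 weeks of age, each of 7 days at 2% in the drinking water and 14 days of plain water. At 11 weeks, straight after the first treatment with dextran sulfate sodium, they were switched to 0 or 8 mg/kg FA for 16 weeks and were killed at 27 weeks. Lesion cells were laser-microdissected from fixed, paraffin-embedded colon. The other libraries used below are from non-dysplastic colonic epithelium of mice on the same diets (8ND and 0ND). Agent, strain and age were therefore shared by 8P and 0P, and the model is one of tumors that arise in chronic chemical colitis in an outbred stock.

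Folate carries 1-carbon units, and part of them is used to make S-adenosylmethionine, the donor of the methyl groups that DNA methyltransferases place on cytosine in CpG. In mammals most CpGs between genes and in gene bodies are methylated, while CpG islands at promoters are mostly free of methylation, and tumors often show losses at the former and gains at the latter. In DREAM, a restriction enzyme assay read by sequencing, the unmethylated CCCGGG sites are first cut by SmaI and the methylated ones then by XmaI, so that the end of each read tells whether that copy was methylated.

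The files list 173449 CCCGGG sites (build mm9) and 18 spiked DNA standards for each library. The methylation level of a site was given as the raw percentage of methylated reads and as a percentage adjusted with the standards. Within a library, the adjusted odds of methylation were the raw odds times 1 factor shared by its sites. Of the 173449 sites, 13772 had at least 20 reads in all 13 libraries and were compared, 229 of them on chromosome X. Genes and sequences around the sites are not analysed here, since the mouse reference at hand is a later build than mm9. A site of 20 reads with 10 methylated has a 95% Wilson interval of 29.9% to 70.1%, and the median of 257 reads with 128 methylated one of 43.7% to 55.9%. These intervals, and the limits given for counts of 0, cover counting error only.

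The groups differed in their libraries before any site was compared. Reads on sites numbered 2887279 to 7032575 in 0P (median 4630591) and 4892730 to 13960168 in 8P (median 9962939), and the groups overlapped (two-sided exact permutation test over 1716 assignments, p = 0.00699). The standards took 32.6% to 77.4% of the reads in 0P (median 53.1%) and 8.80% to 40.3% in 8P (median 16.6%, exact permutation p = 0.00233). The adjustment factor was 0.992 to 1.21 in 0P (median 1.04) and 1.16 to 1.52 in 8P (median 1.23). Its means differed by 0.222 (exact permutation p = 0.00466), and 1 of the 6 0P lesions, that of mouse 1820, lay within the range of 8P. The adjustment thus raised the methylation of 8P more than that of 0P on average. The part of depth and of the share of standards in the differences below was not tested.

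The spiked standards, whose methylation does not depend on the mouse, were read differently in the groups as well. Their raw methylation was lower in 8P for 17 of the 18, with a median difference of -2.14 percentage points, and 11 of them, all lower, passed an exact permutation test after Benjamini-Hochberg adjustment over the 18. After the adjustment the median difference was 0.294 points and 5 standards passed, 4 higher and 1 lower in 8P. The widest was Sla374_2, with raw levels of 69.8% to 85.5% in 0P (median 76.3%) and 49.3% to 75.6% in 8P (median 63.1%). Its adjusted levels were 73.7% to 85.9% (median 76.7%) and 59.7% to 78.3% (median 66.4%), which was still a mean difference of -11.0 points. Neither measure therefore placed the standards of both groups at the same level, and the 2 measures are given side by side.

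One library stood apart. Over 925 sites whose mean level in the 12 epithelium libraries of the same cohort was 20% to under 80%, the 0P lesion of mouse 1805 (1805P) read exactly 0 or 100% at 46.8%, at a median of 93 reads per site. The other 5 0P lesions did so at 0.216% to 4.11% of these sites, and the 7 8P lesions at 0 to 0.216% (exact permutation p = 0.00233 over 13 libraries, 0.00505 without 1805P). This library also had the fewest reads on sites and the largest share of reads on standards. The spread between lesions was also wider in 0P. The median SD of a site's adjusted level over the lesions of a group was 17.2 points in 0P, 13.1 points in 0P without 1805P and 9.27 points in 8P. Results are therefore given with and without 1805P.

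**Figure D1:**
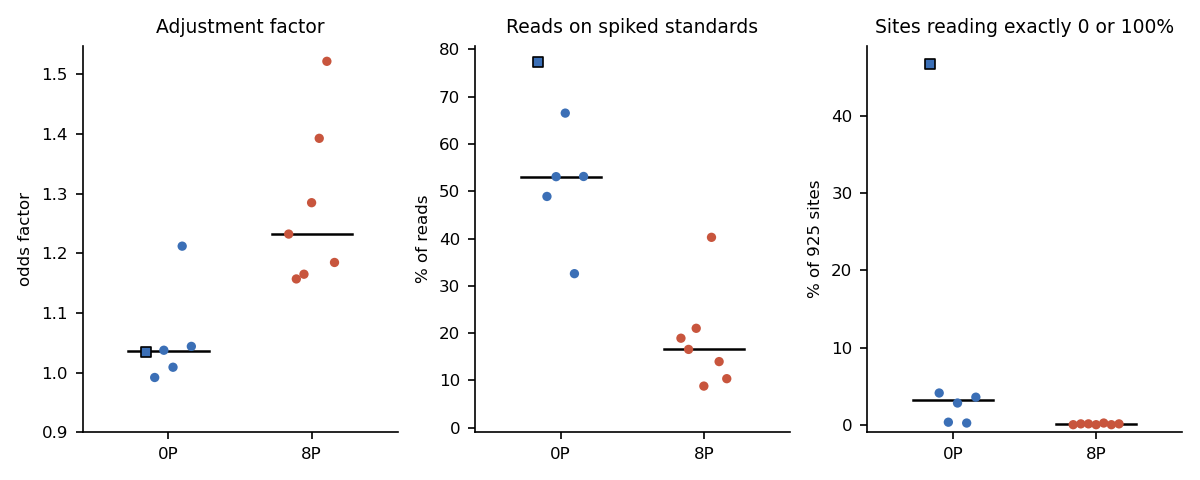
Adjustment factor (left), percentage of reads on the spiked standards (middle) and percentage of 925 sites of intermediate level that read exactly 0 or 100% (right), 1 point per polypoid lesion, with the group median as a line and 1805P as a black-edged square. The 8P lesions have larger factors and fewer reads on standards, and 1805P lies at 46.8% in the right panel while all other lesions lie at or below 4.11%.

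Averaged over all 13772 sites, the lesions on the 2 diets did not differ beyond their spread, and the sign of the difference depended on the measure. Adjusted methylation was 13.8% to 16.3% in 0P (median 15.1%) and 14.1% to 16.5% in 8P (median 15.5%), a difference of 0.310 points (exact permutation p = 0.502). Raw methylation was 13.8% to 16.1% in 0P (median 15.0%) and 13.1% to 15.4% in 8P (median 14.4%), a difference of -0.634 points (exact permutation p = 0.194). Without 1805P, and with the sites chosen anew for the remaining libraries, the differences were 0.205 and -0.766 points.

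The sites were then split into 5 classes by their mean adjusted level over both groups of lesions. In the class of 5 to under 20% (998 sites), 8P was higher under both measures, at 9.04% to 14.8% (median 12.7%) against 9.23% to 12% in 0P (median 10.5%) after adjustment. The difference was 2.30 points adjusted (exact permutation p = 0.0303) and 0.454 points raw (p = 0.610 in the same exact permutation test). Of the 7 8P lesions, 5 lay above all 0P lesions after adjustment and 1 lay below them all. Under the raw measure 2 lay above all 0P lesions and 2 below them all. In the lowest class, under 5% (9617 sites), 8P was also higher under both, by 0.106 points adjusted (exact permutation p = 0.0280) and 0.0277 points raw (exact permutation p = 0.501). This direction did not hold throughout: the adjusted difference was -0.204 points once library means were subtracted, and with classes from epithelium it was 0.0362 points adjusted and -0.0569 points raw. On autosomal sites alone the class of 5 to under 20% differed by 2.11 points adjusted (exact permutation p = 0.0583).

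At highly methylated sites the direction was the opposite. In the class of 80% and over (965 sites), raw levels were 87.4% to 92.9% in 0P (median 90.0%) and 84.9% to 89.4% in 8P (median 86.8%), and 5 of the 7 8P lesions lay below all 0P lesions. The difference was -2.96 points raw (exact permutation p = 0.0152) and -1.08 points adjusted (exact permutation p = 0.272). In the class of 50 to under 80% (1113 sites) the differences were -4.36 points raw and -0.320 points adjusted (exact permutation p = 0.0944 and 0.895). The class of 20 to under 50% (1079 sites) was higher by 2.18 points adjusted and lower by 1.61 points raw. Of the 14 differences tested (5 classes, all sites and chromosome X under each measure) none passed Benjamini-Hochberg adjustment, with 0.106 as the smallest adjusted p. When a lesion was left out, the sites and their classes were set anew for the remaining libraries. Without 1805P the class of 5 to under 20% then differed by 2.10 points adjusted (exact permutation p = 0.0556) and the class of 80% and over by -3.12 points raw (exact permutation p = 0.0152). On the 965 sites themselves 1805P read 91.4% raw, above the 0P mean of 89.9%, so leaving it out there narrows the difference. The adjusted difference of the class of 5 to under 20% also lost its unadjusted call without the lesion of mouse 1807 (2.09 points), that of mouse 1841 (2.09 points) or the lesion of mouse 1856 labelled 1856P2 (1.95 points). Without the lesion of mouse 1807, the class of 80% and over differed by -1.96 points adjusted and that of 50 to under 80% by -5.65 points raw (exact permutation p = 0.0455 and 0.0227). In the class of 50 to under 80% the adjusted difference changed sign without the 0P lesions of mice 1808 (0.357) or 1839 (0.912), or the 8P lesions of mice 1800 (0.657) or 1841 (0.106).

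These classes were set from the lesions themselves, so the level of each lesion helped to place a site in its class. When the classes were set from the epithelium of the same cohort instead (8232 sites), the decline of the top class was not seen after adjustment. Among the 631 sites at 80% and over in epithelium, adjusted levels were 78.5% to 88.3% in 0P (median 83.1%) and 80.4% to 86.6% in 8P (median 83.4%), with a difference of 0.00706 points. The raw difference there was -2.53 points (exact permutation p = 0.152). Among the 422 sites of 5 to under 20% in epithelium, 8P was higher by 2.06 points adjusted (exact permutation p = 0.0420, 0.420 after Benjamini-Hochberg adjustment over the 10 tests) and by 0.0339 points raw. With all lesions in this split, the low class kept its sign under both measures and no other class did. Without 1805P the low class differed by 2.03 points adjusted (exact permutation p = 0.0657) and 0.0533 points raw. The class of 80% and over then differed by -0.309 points adjusted and -2.77 points raw (exact permutation p = 0.866 and 0.154). Without that library, the class of 80% and over thus had the same sign under both measures as well.

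**Figure D2:**
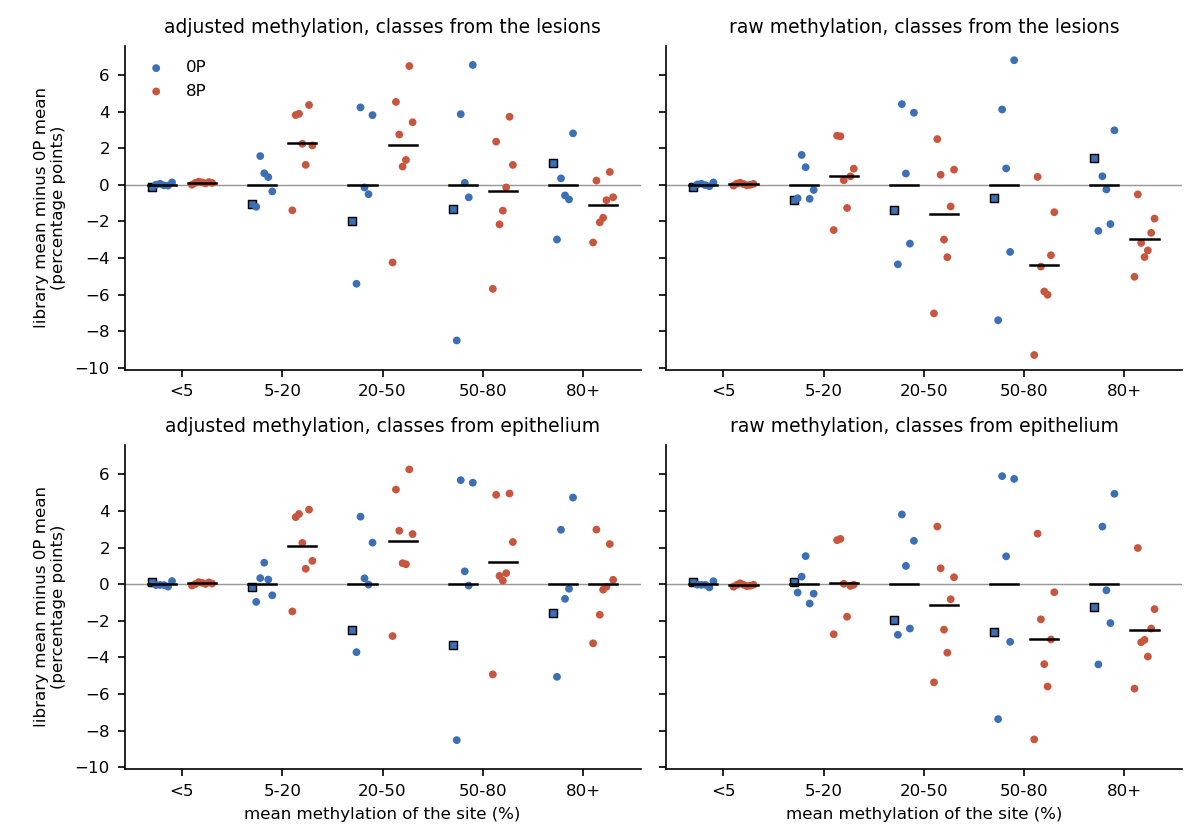
Mean methylation of each polypoid lesion minus the 0P mean, in percentage points, for 5 classes of sites by methylation level (x axis), under the adjusted (left) and raw (right) measure, with classes set from the lesions (top) or from epithelium of the same cohort (bottom). Lines are group means and the black-edged square is 1805P. The 8P mean of the 5 to under 20% class lies 2.30 points (top) and 2.06 points (bottom) above 0P after adjustment, and that of the 80% and over class lies 2.96 and 2.53 points below it in the raw measure.

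Single sites were called by the study's criteria: group means more than 5 points apart and p under 0.05 before adjustment (two-sided, equal variances assumed here). Adjusted methylation gave 352 calls, 2.56% of the 13772 sites, of which 121 were lower and 231 higher (0.879% and 1.68% of sites) in 8P. Raw methylation gave 334 calls (2.43%), of which 232 were lower and 102 higher (1.68% and 0.741%). The measure therefore reversed the balance of directions. No called site had the opposite sign under the other measure, and 223 sites (1.62%) were called under both, 121 lower (0.879% of sites) and 102 higher (0.741%). The remaining 129 adjusted calls were all higher in 8P and the remaining 111 raw calls all lower. The calls under both measures were thus the 121 adjusted lower calls and the 102 raw higher calls. The measures differ only by 1 factor per library, larger in 8P on average. A call under both is therefore not support from 2 independent measures.

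No site passed a Benjamini-Hochberg adjustment under either measure in the equal-variance test, where 579 adjusted and 551 raw sites had an unadjusted p under 0.05. Limma gave 0 as well, with 611 and 584 at an unadjusted p under 0.05, and the exact permutation test gave 0 with 618 and 591. A quasi-binomial logistic model of the reads gave 0 adjusted and 1 raw site, with 1311 and 1208 at an unadjusted p under 0.05. With the 5-point difference, that model put 227 sites lower and 50 higher under both measures, a more uneven split than that of the equal-variance test. The sites described below are those that met the study's criteria, and single sites among them are not established one by one. Whether their number exceeds that given by chance was not tested either.

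When 1805P was left out, the same 13772 sites gave 209 calls under both measures (1.52%), 119 lower and 90 higher. Of the 223 sites called with all lesions, 138 remained called, 78 lower and 60 higher. The totals thus changed little while 85 of the 223 sites were lost. With the sites chosen anew for the remaining libraries, leaving out the 0P lesion of mouse 1807 gave 185 lower sites and leaving out that of mouse 1808 gave 160 higher sites. Requiring 50 reads in every library left 57 lower and 43 higher sites among fewer sites compared.

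Direction was tied to the level of the site. Of the 121 sites called lower under both measures, 54 were in the class of 80% and over and 47 in that of 50 to under 80%. Of the 102 called higher, 56 were at 5 to under 20% (5.61% of its sites) and 30 at 20 to under 50% (2.78%). Called or not, 56.9% and 43.1% of the sites of these classes were higher under both measures. The class of 80% and over held 2 sites called higher and that of 5 to under 20% held 6 called lower. Without 1805P the same classes held 40 and 50 lower sites, 39 and 25 higher sites, and 6 higher and 10 lower sites. With classes from epithelium, which do not use the lesions, 31 of 33 called sites at 80% and over were lower and 18 of 20 called sites at 5 to under 20% were higher, and without 1805P it was 22 of 27 and 14 of 16.

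**Figure D3:**
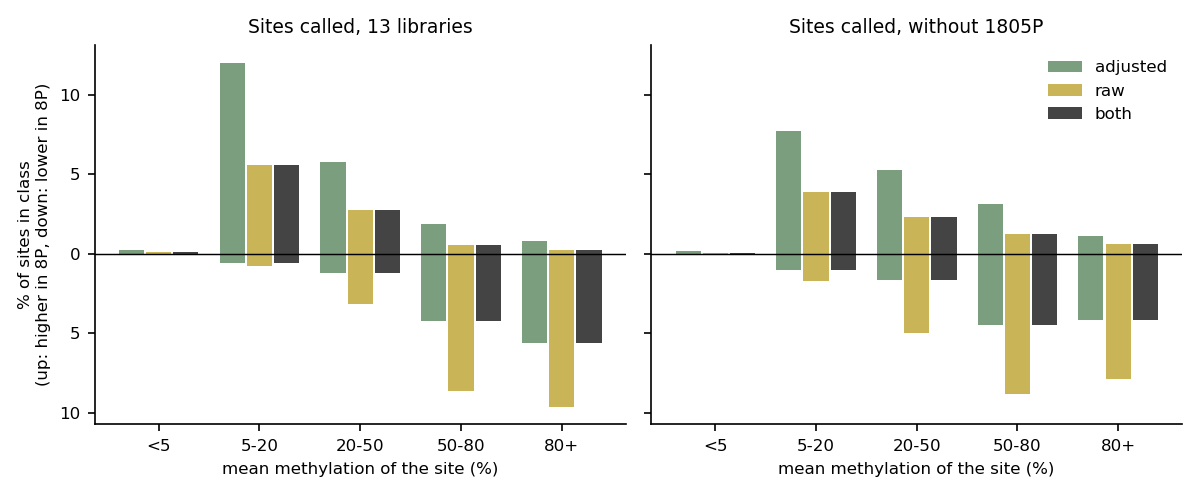
Percentage of the sites of each level class called higher (bars above 0) or lower (bars below 0) in 8P under the adjusted measure, the raw measure and both in the same direction, with all 13 lesions (left) and without 1805P (right). Calls are mostly higher below 20% and mostly lower from 50% upwards, while the adjusted measure adds higher calls and the raw measure adds lower ones. At 20 to under 50% they are mostly higher under the adjusted measure and under both. Raw calls of that class are mostly lower, 34 against 30 higher (left) and 54 against 25 (right).

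The differences at these sites were large compared with those of the class means. Over the 121 lower sites the median difference was -14.6 points adjusted and -18.6 points raw, and over the 102 higher sites 14.3 and 11.2 points, values that the criteria themselves select. The lesion medians over the lower sites were 80.7% to 100% in 0P (median 85.2%) and 65.6% to 74.4% in 8P (median 68.3%) after adjustment. Over the higher sites they were 0 to 13.2% in 0P (median 5.62%) and 18.8% to 26.3% in 8P (median 22.9%). In both lists the extreme 0P value of 100% or 0 was that of 1805P. At a lower site a median of 4 of the 7 8P lesions lay below all 0P lesions, and at a higher site a median of 5 lay above them all. The groups thus overlapped at most of these sites, and such counts depend on the most extreme 0P lesion.

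The log2 odds of methylation were also compared, with 0.5 added to each count and centred on the library's median over sites of 20 to under 80%, which cancels any single odds factor. Of the 13772 sites, 2232 (16.2%) had an unadjusted p under 0.05 on this scale, 1846 lower and 386 higher in 8P. This count reads depth as well as methylation, since the added 0.5 weighs more where reads are few. Of the 2716 sites with no methylated read in any lesion, 1036 had such a p, and 1034 of them came out lower in the deeper 8P libraries. The class under 5% held 1672 of the lower and 203 of the higher sites. Of the 1426 sites with both kinds of reads in every lesion, 87 had an unadjusted p under 0.05, 40 lower and 47 higher. They included 41 of the 44 sites called under both measures among those 1426, all 41 in the direction of the call. Log odds come from the same reads, and at 0 of the 223 called sites did they have the opposite sign. Their direction there was all but fixed by the call and is not separate support.

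The groups did not overlap under either measure at 9 of the 223 sites (0.0653% of all sites). Of the 13772 sites, 23 (0.167%) did not overlap under both measures whether called or not, 32 (0.232%) after adjustment and 30 (0.218%) in the raw measure. All 9 were still called without 1805P, which is a weak check, since leaving out a lesion cannot make separate groups overlap. At each of the 9, 1805P read exactly 0 or 100%, as it did at 30 of the 31 sites named here. Positions are those of mm9.

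Of the 3 lower sites, that with the largest difference was SmaI_mm9_52171 on chromosome 5 at 117495803. Adjusted methylation was 96.6% to 100% in 0P (median 100%) and 75.5% to 96.0% in 8P (median 80.4%). All 8P lesions were below all 0P lesions, though the highest of them, that of mouse 1848, was within 1 point of the lowest 0P lesion. The means differed by -15.0 points adjusted and -17.9 points raw. The exact permutation test gave p = 0.00117 for each, the smallest possible here, which groups that do not overlap always give. Since the site was named for its lack of overlap, this p was fixed by the choice. After Benjamini-Hochberg adjustment over all sites the exact permutation p was 0.502 for the adjusted measure. In the 5 0P lesions with no unmethylated read, 30 to 139 reads allow up to 10.0% to 2.16% of unmethylated copies. The neighboring site at 117495916 was lower as well, by -18.5 points adjusted, with overlapping groups.

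The second lower site, SmaI_mm9_40708 on chromosome 4 at 126424306, read 93.6% to 100% in 0P (median 95.3%) and 74.5% to 89.7% in 8P (median 83.6%). The difference was -14.6 points adjusted and -18.4 points raw, and -13.8 and -17.6 points without 1805P. The third, SmaI_mm9_163148 on chromosome 19 at 41370927, read 100% in all 6 0P lesions and 84.5% to 98.7% in 8P (median 95.5%). Its 0P lesions had 36 to 172 reads, which allow up to 8.33% to 1.74% of unmethylated copies, and 5 of the 7 8P levels lay within the wider of these limits.

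Of the 6 higher sites, 2 were neighbors on chromosome 12. SmaI_mm9_115962 at 58676980 read 0 to 0.920% in 0P (median 0) and 1.79% to 22.3% in 8P (median 12.1%). SmaI_mm9_115963 at 58677116, 136 bp away, read 0 to 0.9% in 0P (median 0) and 3.47% to 26.2% in 8P (median 8.27%). At both sites the lesions of mice 1830, 1841 and 1848 were the highest of 8P, and 5 of the 6 0P lesions had no methylated read. The 5 0P lesions together had 837 and 894 reads at these sites, which allow up to 0.358% and 0.336% of methylated copies. The differences were 12.8 and 10.9 points adjusted and 10.7 and 9.12 points raw.

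On chromosome 11, SmaI_mm9_107780 at 77744628 read 0 to 2.96% in 0P (median 0) and 5.50% to 33.5% in 8P (median 8.70%), a difference of 12.7 points adjusted and 9.90 points raw. Here the 2 lesions of mouse 1856 were the highest, at 20.1% and 33.5%. SmaI_mm9_109294 on the same chromosome at 95063609 had no methylated read in any 0P lesion and read 1.97% to 18.5% in 8P (median 2.82%), a difference of 6.46 points adjusted and 5.37 points raw. SmaI_mm9_48070 on chromosome 5 at 65095557 read 0 to 2.44% in 0P and 4.51% to 19.1% in 8P (median 8.10%). The sixth, SmaI_mm9_159732, read 0 to 1.57% in 0P and 3.88% to 10.9% in 8P (median 8.96%). In the cohort's epithelium, SmaI_mm9_109294 reached 35.1% (8ND) and 5.91% (0ND), and SmaI_mm9_159732 22.5% (8ND) and 13.1% (0ND). At both sites the highest 8ND library therefore exceeded every 8P lesion, while the epithelium medians were below the 8P median. These medians were 0.325% (8ND) and 0 (0ND) at SmaI_mm9_109294, and 1.84% and 3.97% at SmaI_mm9_159732. At all 6 higher sites the 8P lesions remained at or below 33.5%, so that most copies were unmethylated in both groups of lesions.

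**Figure D4:**
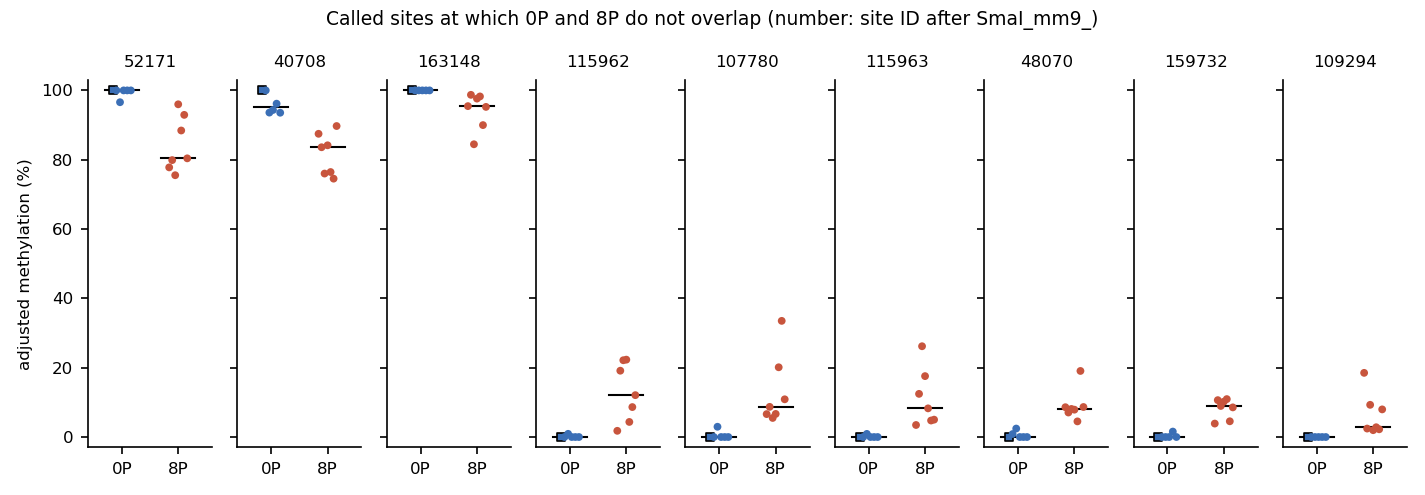
Adjusted methylation of each polypoid lesion at the 9 sites called under both measures at which the groups do not overlap, with the group median as a line and 1805P as a black-edged square. At the 3 lower sites 0P lies at 93.6% or above, and at the 6 higher sites 0P lies at 2.96% or below.

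The largest differences among the 223 sites, which were chosen after their values were seen, came from sites with overlapping groups or wide spreads. At SmaI_mm9_111644 (chromosome 11, 115089041) adjusted methylation was 52.2% to 100% in 0P (median 73.8%) and 18.8% to 54.0% in 8P (median 40.4%). The means were 74.1% ± 17.2 (SD, n = 6) and 37.8% ± 12 (SD, n = 7), a difference of -36.4 points, and -31.2 points without 1805P. The groups overlapped through the lesions of mice 1820 and 1830.

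In the other direction, SmaI_mm9_143972 (chromosome 16, 29994198) read 0 to 42.5% in 0P (median 30.2%) and 42.8% to 75.8% in 8P (median 62.1%). The means were 24.4% ± 16.2 (SD, n = 6) and 60.7% ± 11.0 (SD, n = 7), a difference of 36.4 points, and 31.5 points without 1805P. In non-dysplastic epithelium of the same cohort 0ND read 21.9% to 86.9% (median 45.3%) and 8ND read 0 to 79.3% (median 55.9%) at this site, ranges within which most lesions lay. The adjusted groups did not overlap, but the raw ones did, with a highest 0P level of 42.3% and a lowest 8P level of 37.8%. A further 2 sites lower in 8P, SmaI_mm9_28090 (chromosome 3, 84278070) and SmaI_mm9_151576 (chromosome 17, 45698117), differed by -32.5 and -30.4 points adjusted, and at both the 8P lesion of mouse 1830 was the lowest, at 16.6% and 18.1%. Another 2 higher sites, SmaI_mm9_76661 (chromosome 8, 11423560) and SmaI_mm9_170252 (chromosome X, 102909574), differed by 34.5 and 33.5 points. All 6 were still called without 1805P, a weak check for sites chosen for their large differences.

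Called sites lay next to each other at 10 places, taken as runs of 2 or more sites called under both measures in the same direction and at most 2000 bp apart. All 10 were pairs, and 5 were lower and 5 higher in 8P. Within 1000 bp of these pairs only 1 further compared site lay, beside the pair on chromosome 8, and it had the same sign without being called. Close neighbors were the rule, since of the 13772 compared sites only 276 had no other site within 500 bp. Read counts of the 2 sites were near equal at some pairs (34 and 33 in 1805P on chromosome 15). They differed at others (260 and 172 in 1805P on chromosome 8). Whether both sites were read from the same fragments, and how many pairs chance would give, was not tested. A pair is therefore not taken as support from 2 independent sites. Both sites of a pair remained called without 1805P at 2 of the 10 places, and 10 of the 20 sites did.

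These 2 places were chr10:79872830-79872917, lower, and chr12:58676980-58677116, higher and described above. At the first, SmaI_mm9_98831 read 90.8% to 100% in 0P (median 100%) and 64.1% to 93.2% in 8P (median 89.5%). SmaI_mm9_98832 read 66.5% to 100% in 0P (median 89.5%) and 54.4% to 80.6% in 8P (median 65.3%). The groups overlapped at both, and the lesion of mouse 1841 was among the lowest. The mean difference over the pair was -16.8 points adjusted and -20.7 points raw, with 20 and 21 reads in 1805P.

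The pair with the largest loss was chr14:33438275-33438578, at -20.5 points adjusted and -23.6 points raw. SmaI_mm9_129661 read 22.4% to 84.7% in 0P (median 48.1%) and 4.47% to 36.8% in 8P (median 25.2%), and 1805P was the highest of 0P. Without it, this site differed by -18.4 points and was still called, while SmaI_mm9_129662 differed by -12.7 points and was not. The other lower pairs, on chromosomes 5, 15 and 19, had mean differences of -16.7, -13.2 and -11.1 points adjusted.

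Of the higher pairs, chr17:28409081-28409396 had the largest mean difference, 18.2 points adjusted and 14.7 points raw. SmaI_mm9_149824 read 0 to 9.79% in 0P (median 4.11%) and 5.09% to 61.6% in 8P (median 23.6%), and the 8P lesion of mouse 1830 was the highest, next to 40.4%. At chrX:20003122-20003219 the mean difference was 17.3 points adjusted and 13.5 points raw. SmaI_mm9_165820 there read 0 to 23.3% in 0P (median 6.15%) and 14.5% to 38.7% in 8P (median 29.7%), and the groups overlapped. At chr8:34996087-34996221, read with at least 172 reads in every lesion, the mean difference was 16.5 points adjusted and 12.3 points raw. The site SmaI_mm9_78122 of that pair read 0 to 25.2% in 0P (median 13.4%) and 24.2% to 35.8% in 8P (median 26.9%). The fifth pair, chr10:77127124-77127314, differed by 12.7 points adjusted and 9.88 points raw.

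Of the 10 pairs, 4 were covered in the epithelium of the cohort, with at least 20 reads in all 12 libraries. At SmaI_mm9_78122 on chromosome 8 0ND read 25.3% to 41.7% (median 36.1%) and 8ND read 19.4% to 57.9% (median 35.0%), so that the 0P lesions were the low group. At SmaI_mm9_98457 of the higher pair on chromosome 10 0ND read 8.39% to 28.4% (median 21.2%) and 8ND read 7.32% to 56.5% (median 30.7%), where 0P had a median of 9.58% and 8P one of 26.7%. At SmaI_mm9_115962 on chromosome 12 0ND read 1.42% to 22.8% (median 4.36%) and 8ND read 0.75% to 6.52% (median 2.99%). These medians lay between those of 0P and 8P. At SmaI_mm9_140350 of the lower pair on chromosome 15 0ND read 83.1% to 94.2% (median 87.4%) and 8ND read 80.5% to 100% (median 92.8%), where 0P had a median of 90.8% and 8P one of 86.1%.

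Chromosome X had the largest share of sites called under both measures, and few sites of low level. Female cells carry 1 active and 1 inactive X chromosome, and promoters on the inactive one are commonly methylated. Of the 229 X sites, 13 (5.68%) were called, 3 lower and 10 higher, while the autosomes had shares of 1.04% (chromosome 6) to 2.13% (chromosome 17). Without 1805P it was 9 (3.93%), 2 lower and 7 higher. Mean adjusted methylation over the X sites was 27.9% to 34.5% in 0P (median 31.5%) and 31.1% to 36.4% in 8P (median 35.4%), and 4 of the 7 8P lesions lay above all 0P lesions. The difference was 3.10 points adjusted (exact permutation p = 0.0210) and 0.0685 points raw (exact permutation p = 0.960). Without 1805P, and with the sites chosen anew for the remaining libraries, it was 1.94 points adjusted (exact permutation p = 0.0707) and -1.09 points raw. The sign under the raw measure thus changed without that library. With sites chosen in the same way, the adjusted difference also lost its unadjusted call without the 0P lesions of mouse 1807 (2.82 points) or 1808 (2.99 points). At a minimum of 10 or 50 reads, or with every library drawn to the same total, that call was lost as well (2.16, 2.56 and 2.54 points, exact permutation p = 0.0897, 0.138 and 0.0816). The X differed from the autosomes in its levels, with 11 of 229 sites under 5%, against 9606 of the 13543 autosomal ones. Within classes, 7 of 61 X sites (11.5%) at 5 to under 20% were called under both measures, against 5.87% of autosomal sites, and 5 of 111 (4.50%) at 20 to under 50%, against 3.93%. In the 3 other classes the X had 0 of 11, 0 of 24 and 1 of 22 sites called, against 0.0937%, 4.87% and 5.83% of autosomal sites from low to high. The larger share of the X thus went with its larger share of sites at 5% to under 50%, and the difference within classes was not tested.

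The same sites were looked up in non-dysplastic epithelium of the same cohort, whose 12 libraries all came from the mice that gave the lesions. Of the 121 lower sites, 53 were covered there, and 39 of them (73.6%) were lower in 8ND than in 0ND after adjustment. Of all compared sites 34.8% were lower, but in the classes from which most lower sites came it was 69.0% (50 to under 80%) and 58.2% (80% and over). Of the 46 covered higher sites, 24 (52.2%) were higher in 8ND after adjustment, against 24.6% of all compared sites, 42.6% of the class of 5 to under 20% and 35.1% of that of 20 to under 50%. In the raw measure 19 of the 46 (41.3%) were higher and 27 lower, so their direction in epithelium depended on the measure. In the first cohort, where 8 of the 11 epithelium libraries came from the same mice as the lesions, 60 of 75 lower sites (80%) were lower in 8ND, where the same 2 classes had 86.4% and 80%, and 45 of 72 higher sites (62.5%) were higher, against 56.8% and 33.7% of the same 2 low classes. These shares are descriptions and were not tested.

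The 4 groups of the cohort placed the called sites between lesion and epithelium in different ways. Over the 53 lower sites the median adjusted level was 85.3% in 0ND, 85.4% in 0P, 84.0% in 8ND and 72.4% in 8P. Here all 7 8P lesions (67.3% to 77.7%) lay below all libraries of the other 3 groups, the lowest of which read 80.5%. Over the 46 higher sites it was 14.0% in 0ND, 5.70% in 0P, 12.8% in 8ND and 19.4% in 8P. There the 0P lesions (0 to 8.57%) lay below most epithelium libraries and the 8P lesions (12.7% to 26.9%) overlapped with them. Since the sites were chosen for the difference between 8P and 0P, these values describe them and test nothing.

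**Figure D5:**
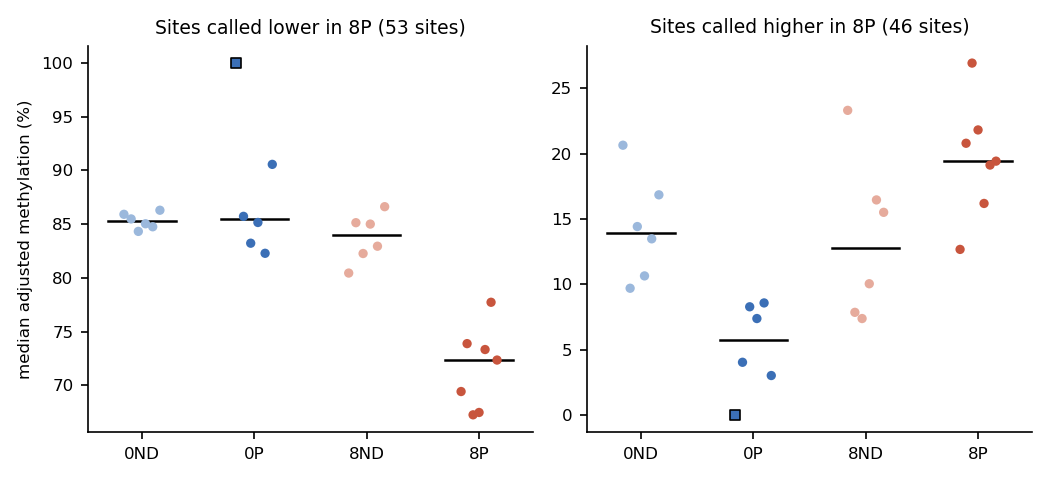
Median adjusted methylation of each library of the second cohort over the 53 sites called lower (left) and the 46 called higher (right) in 8P that were covered in epithelium, with the group median as a line and 1805P as a black-edged square. At the lower sites 8P lies below the other 3 groups, and at the higher sites 0P is the lowest group at a median of 5.70%.

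Lesions of a diet were compared with each other over the 2192 sites of 20 to under 80%. Between 2 0P lesions the median absolute difference of a site was 11.7 to 27.8 points over 15 pairs (median 17.8), and without 1805P 11.7 to 19.5 points over 10 pairs (median 14.8). Between 2 8P lesions of different mice it was 8.58 to 12.7 points over 20 pairs (median 10.4). The 2 lesions of mouse 1856 differed by 11.7 points, within the range of lesions from different mice. With the average of these 2 lesions as 1 sample, 114 lower and 105 higher sites were called under both measures, and 195 of the 223 sites remained called.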

How the data were processed

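DNA methylation was measured by DREAM. Per the labels, reads were mapped to mm9 (Bowtie2 and SAMtools are named in the submitters' processing notes, versions not given in the sources used here; the study's methods name the human genome), and libraries were grouped by their labelled tissue, diet and cohort. The authors deposited for each library and site the counts of methylated, unmethylated and total reads. They also deposited the raw percent of methylated reads and a percent adjusted with the standards. The single factor per library was recovered from both.

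A site was kept when none of the 13 libraries had fewer than 20 reads there. Tests per site were two-sided with equal variances, on percentages. Means were compared by exact permutation over all 1716 assignments (smallest p 0.00117). Both lesions of mouse 1856 entered as separate samples, and which is which follows the record of each sample, with which the names of its 2 data files disagree. Python 3.11.15, numpy 2.4.6, scipy 1.17.1, pandas 2.3.3, and limma 3.58.1 in R 4.3.3 were used. The equal-variance, exact permutation and quasi-binomial tests were first run on simulated data with known changes. Log2 odds were computed with 0.5 added to each count, and reads absent from a library were given an upper limit of 3 counts.

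Named sites were the sites called under both measures at which the groups did not overlap (up to 10 in each direction), runs of called sites (up to 10), sites called in opposite directions (there were 0), and 6 added for their size after their values were seen. The comparison, classes and lists were chosen with earlier results of these data known. Alternatives were other coverage minimums, the same total of reads, centring, other per-site tests and thresholds, medians, pooled reads, other classes, autosomes only, the average of both lesions of mouse 1856, and each library left out. Medians of log odds, autosomes only, unequal variances, the raw level of named sites, and the values without 1805P on the same sites and with classes from epithelium were added after the data were seen. No authors' comparison columns were used.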

Additional observations from a re-analysis of the deposited data

Results flagged for a closer look

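In 96 sets of values, 1 per group for the library measures, class means and named sites, 12 had 1 lesion separated from the rest of its group by a gap that was large for the range of the group. Chance gives about 1 in 20 sets, or 4.8, but this rate does not apply to the sites named because the 0P lesions lie at 0 or 100%, where a single read can set 1 lesion apart. Among the library measures, the adjustment factor of the 0P lesion of mouse 1820 was 1.21, while the other 0P lesions reached at most 1.04. The share of intermediate sites at exactly 0 or 100% was 46.8% in the 0P lesion 1805P, next to 4.11%.

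Of the other 10 values, all adjusted methylation at named sites, 7 were those of the 0P lesion of mouse 1808, at sites where most other 0P lesions read 0 or 100%. They were 96.6% at SmaI_mm9_52171, 0.920% at SmaI_mm9_115962, 2.96% at SmaI_mm9_107780, 0.9% at SmaI_mm9_115963, 2.44% at SmaI_mm9_48070, 90.8% at SmaI_mm9_98831 and 64.9% at SmaI_mm9_151576. At SmaI_mm9_159732 the 0P lesion of mouse 1820 read 1.57% while the other 0P lesions read 0. In 8P, the lesion of mouse 1856 labelled 1856P2 read 19.1% at SmaI_mm9_48070, next to 8.66%, and the lesion of mouse 1841 read 64.1% at SmaI_mm9_98831, next to 83.5%.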

How the results depend on the processing

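No paired analysis was possible because 8P and 0P share no mouse, so no replicate block could be fitted. The limits lie in the depth, which differed between the groups, in few sites reaching 20 reads, and in 1805P. Sites whose lowest library had 20 to 24 reads were called in 4.13% (each measure), and sites just below the minimum, with 15 to 19 reads, in 4.30% (adjusted) and 5.07% (raw). The causes of the changes below were not tested.

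With Benjamini-Hochberg adjustment, 0 sites were called. Of the sites called under both measures, 184 were lower with a coverage minimum of 10, and 57 lower and 43 higher (100 in all) with one of 50, where fewer sites are compared. The quasi-binomial model gave 227 lower and 50 higher. Drawing every library to the same total, which does not match depth per site, gave 66 higher, and a difference above 10 points 61 higher.

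For class means, in percentage points of adjusted methylation unless stated, the class under 5% became -0.204 after centring, 0 for medians, 0.0362 with classes from epithelium and -0.472 (log2) for log odds, which at low levels also read depth. The class of 5 to under 20% was 2.11 on autosomes, where it lost its unadjusted call. The class of 20 to under 50% was 6.39 for pooled reads and 0.142 (log2) for log odds. The class of 50 to under 80% was 0.275 at a minimum of 50 reads, 0.0212 at the same total, 0.608 for pooled reads and 1.2 with classes from epithelium. The class of 80% and over was -1.39 after centring, -3.47 for medians, -1.13 (log2) for log odds and 0.00706 with classes from epithelium. Chromosome X was 2.16 at a minimum of 10, 2.56 at 50 and 2.54 at the same total, all without the unadjusted call.

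For raw methylation, the median over all sites gave 0.0429, the class under 5% was -0.0569 with classes from epithelium, and the class of 20 to under 50% was 2.36 for pooled reads. The class of 50 to under 80% was -4.91 at a minimum of 10, the class of 80% and over was -2.53 with classes from epithelium, and chromosome X was -0.880 at a minimum of 10, -0.417 at 50 and -0.510 at the same total.

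Leaving out each library in turn, with the sites chosen anew for the remaining libraries, gave ranges from lowest to highest. For the adjusted differences they were 0.0941 to 0.142 (under 5%), 1.95 to 2.87 (5 to under 20%), 1.03 to 3.27 (20 to under 50%), -1.82 to 0.912 (50 to under 80%), -1.96 to -0.659 (80% and over), 1.94 to 3.78 (chromosome X) and 0.0250 to 0.550 (all sites). For the raw differences they were 0.0120 to 0.0614, 0.108 to 0.930, -2.55 to -0.678, -5.65 to -3.04, -3.78 to -2.54, -1.09 to 0.797 and -0.871 to -0.406 in the same order. The calls ranged from 2.08% to 3.09% of sites adjusted and 2.03% to 2.99% raw, and those under both measures from 96 to 185 lower, 81 to 160 higher and 181 to 300 in all. The raw difference of chromosome X changed sign without the 0P lesions of mice 1805 (-1.09), 1807 (-0.0365) or 1820 (-0.162), or the 8P lesions of mice 1800 (-0.211), 1830 (-0.489), 1841 (-0.348) or 1858 (-0.0543). The adjustment factor kept its direction and its call in all 13.

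The 31 named sites kept their direction on log odds (-4.16 log2 at SmaI_mm9_52171), which come from the same reads, so that this was all but fixed. Limma and the exact permutation test use the same difference of group means, -15.0 points at SmaI_mm9_52171 under each, so direction under them was fixed. The same sign in raw methylation was a condition for naming a site, so it was fixed as well. SmaI_mm9_163149 lost its call in the exact permutation test, and SmaI_mm9_129662 and SmaI_mm9_78122 lost it on log odds.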
